A study of Mus musculus with 13 samples.

Results

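Livers of mice that had received TAA for 6 weeks were compared with livers of mice that had received it for 1 week. TAA is taken here as thioacetamide, a compound toxic to liver cells. The comparison uses 3 arrays of each time, 6 of the 13 arrays of the series, chosen by their column headings and not by any measured value. It covers all 8027 genes whose named probe was detected (detection p-value under 0.01) on at least 3 of the 13 arrays.

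All samples came from female C57BL/6 mice, and RNA of the whole liver was hybridised to Illumina MouseRef-8 v2.0 arrays, on which each gene is read by short bead-bound probes. Mice in both groups had received TAA, and levels in untreated liver are given below for comparison. The naive and 4-week arrays also entered the normalization, the detection filter, the choice of probes and the estimate of the spread. The series also holds 3 naive samples and 4 samples taken at 4 weeks. The labels give neither the dose, the route and schedule, nor the age of the mice. Whether each sample is a different animal is not stated either, so a p-value here reflects the spread between samples only, part of which may be technical.

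Thioacetamide is activated by cytochrome P450 enzymes in hepatocytes and kills those around the central veins. Repeated injury leads to fibrosis: hepatic stellate cells turn into myofibroblasts that secrete collagen and elastic fibres, duct-like epithelial cells expand, and macrophages clear dead cells and remodel the scar. Surviving hepatocytes carry the liver's metabolic work, which is divided along the lobule, with urea synthesis and amino acid breakdown mainly on the periportal side and drug oxidation mainly on the pericentral side. The series title names the cells and molecules that contribute to fibrosis after toxic injury as its subject, and the comparison of the later with the early time asks what differs between established and recent exposure.

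Array brightness differed within both groups. The mean raw intensity was 195, 273 and 202 on 6-week arrays A, B and C, against 479, 408 and 177 on 1-week arrays A, B and C. Detected probes numbered 9675, 10106 and 10269 at 6 weeks, against 10106, 10358 and 8344 at 1 week, so that 1-week array C was the dimmest with the fewest detected probes. Across genes, which are not independent replicates, normalized log2 intensities correlated between arrays with r from 0.976 to 0.98 within the 6-week group and from 0.953 to 0.963 within the 1-week group, and with r from 0.939 to 0.968 between the groups. Another division crossed the groups: 7 genes (Gm7609, Rhbdl2, Pisd-ps2, Prf1, Ifngr2, Zxda and Erich5) separated, by at least 1 log2 unit, a set of all 6-week arrays with 1-week arrays B and C from the set of 1-week array A, all naive and all 4-week arrays. The labels do not say what the set is. Within it, the 6-week arrays can be compared with 1-week arrays B and C only. The markers fitted whole liver: Apoa1, Ttr, Serpina1a and Cyp2e1 averaged 14.77, 14.81, 12.86 and 13.41 on the log2 scale at 6 weeks, against 14.82, 14.75, 12.90 and 13.39 at 1 week. The albumin probe itself was dim, at 6.07 against 6.40, and the markers Adipoq, Plin1, Acta1 and Ckm of fat and muscle were detected on no array of either group.

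Called genes are those with p under 0.05 in the two-sided limma test after Benjamini-Hochberg adjustment for 8027 genes. The calls numbered 737 (9.18%), and 424 (5.28%) were higher and 313 (3.90%) lower at 6 weeks than at 1 week. These shares are the background for the counts of every gene list below. Of the 737, 213 were at least 2-fold higher and 144 at least 2-fold lower. The arrays of the groups did not overlap for 1875 genes (23.4%), 706 of them called. The median change of all genes was 0.045 on the log2 scale. Each SE and p pools the spread within all groups of the series. Fitting only the 6 arrays of both groups gave 169 calls, 111 higher and 58 lower. Estimated array weights were lowest for 1-week arrays A, B and C, at 0.613, 0.404 and 0.403. The pooled SE may therefore be too small for this comparison. Calls rested on single arrays to different degrees: 274 genes were called without 6-week array C, 372 without 6-week array A, 425 without 1-week array A and 1396 without 1-week array B. All 737 changes kept their sign without 1-week array A. For the 706 whose arrays did not overlap this was fixed in advance, so it is no check of them. Leaving out 1-week array A is also the comparison within the array set, and its 425 genes (5.29%; 3.28% higher and 2.02% lower) included 364 of the 737. With each array scaled to its median in place of quantile normalization, 5 genes were called, 1 higher and 4 lower (20% higher, against 57.5%), and the median change of all genes was -0.231. The values below are from quantile normalization. Log2 values in threes are of arrays A, B and C in that order.

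**Figure D1:**
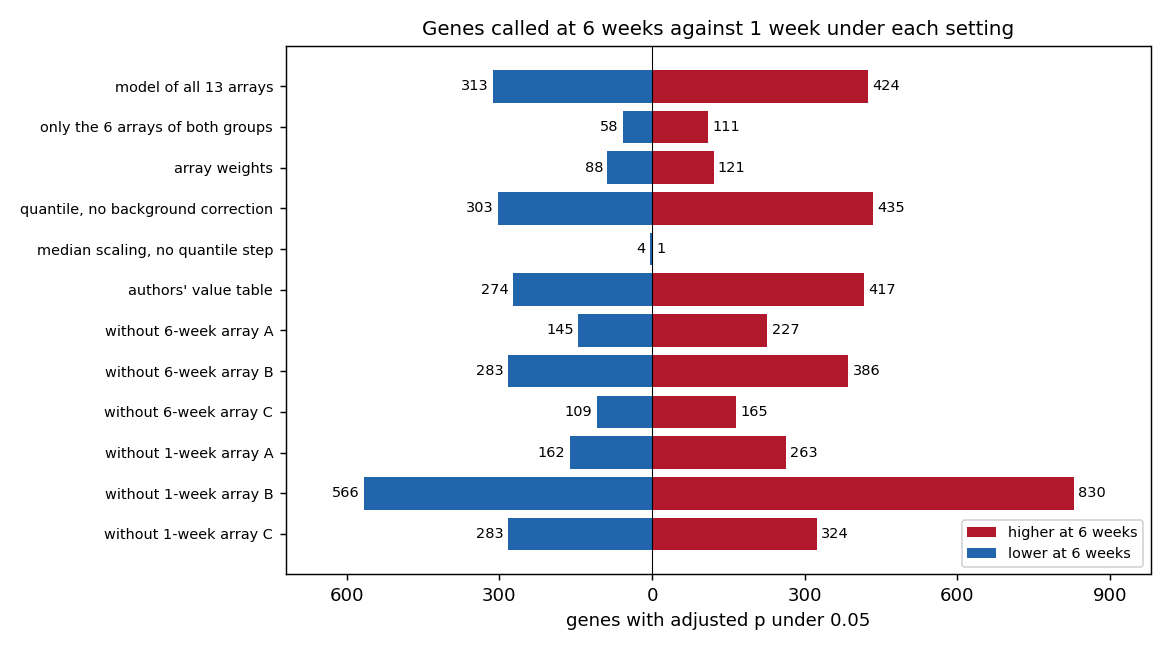
Number of genes called at 6 weeks against 1 week of TAA under each setting, with genes higher at 6 weeks as red bars to the right and genes lower at 6 weeks as blue bars to the left of 0. The model of all 13 arrays calls 424 and 313 genes, the counts are largest without 1-week array B (830 and 566), and median scaling leaves 1 and 4.

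The 12 largest called rises, ranked among genes detected in both groups and with arrays that did not overlap, included surface proteins, secreted proteins, a myofibroblast gene and a matrix protease. Scara3, a scavenger receptor of class A known from oxidative stress responses, read 9.19, 9.64 and 10.62 at 6 weeks, against 6.00, 6.09 and 5.66 at 1 week. Every 6-week array lay more than 3 log2 units above every 1-week array, a change of 3.90 ± 0.35 (SE; limma adjusted p = 0.000109). Ly6d, a small lipid-anchored surface protein, read 10.50, 10.36 and 11.75 at 6 weeks, against 7.87, 8.96 and 6.65 at 1 week. Its 1-week arrays were spread over more than 2 log2 units and still lay below all 6-week arrays, and the change was 3.04 ± 0.53 (adjusted p = 0.00497). A further Ly6d probe changed by 2.30.

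Other surface proteins behaved likewise. Fxyd3, a regulator of the sodium pump, read 7.18, 7.70 and 8.64 at 6 weeks, against 5.38, 4.66 and 4.66 at 1 week, where it was detected on 1 array only. With undetected arrays set to their lowest detected signal, the change of 2.94 ± 0.46 (adjusted p = 0.00311) became 2.39. Tspan8, a tetraspanin of epithelial membranes, read 7.73, 8.53 and 8.95 at 6 weeks, against 6.07, 5.83 and 4.59 at 1 week (2.91 ± 0.43, adjusted p = 0.00253, or 2.48 with the undetected array at its lowest detected signal). Emp1, an epithelial membrane protein, read 9.56, 9.69 and 10.20 at 6 weeks, against 7.91, 7.33 and 5.93 at 1 week (2.76 ± 0.51, adjusted p = 0.00666). In Tspan8 and Emp1 the dim 1-week array C was the lowest.

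Lcn8, a lipocalin known from the epididymis, read 7.0, 8.10 and 8.22 at 6 weeks, against 5.17, 5.14 and 5.12 at 1 week (2.63 ± 0.38, adjusted p = 0.00253). It was detected on 1 of the 3 1-week arrays, and the change with the others at their lowest detected signal was 2.38. Sftpd, the collectin surfactant protein D, read 7.56, 8.31 and 9.23 at 6 weeks, against 5.52, 5.49 and 6.72 at 1 week (2.46 ± 0.46, adjusted p = 0.00682). Pdk4, a kinase that switches off pyruvate dehydrogenase, read 10.52, 10.44 and 9.96 at 6 weeks, against 7.65, 8.04 and 7.48 at 1 week (2.58 ± 0.55, adjusted p = 0.0115). Pdk4 arrays agreed closely within each group, while the 6-week arrays of Sftpd were spread over more than 1.5 log2 units. Gldn, the adhesion protein gliomedin, changed by 2.52 ± 0.42 (adjusted p = 0.00432) and Pdzk1ip1, a small membrane protein that binds a PDZ scaffold of transporters, by 2.44 ± 0.39 (adjusted p = 0.00341). Both were detected on 2 of the 3 1-week arrays, and their changes with the other array at its lowest detected signal were 2.08 and 1.98. Acta2 and Mmp2, also among the 12, are described with the matrix genes. All 12 stayed called with each of the 6 arrays left out in turn, with adjusted p up to 0.0495, for Mmp2 without 6-week array C.

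**Figure D2:**
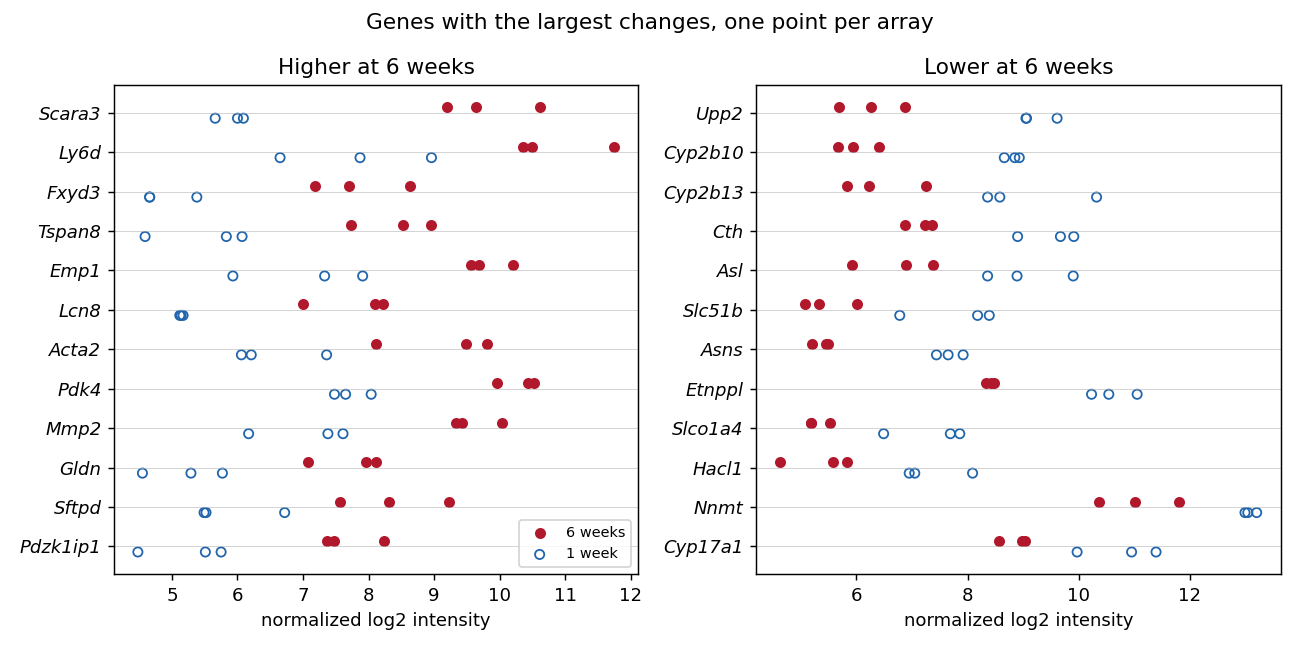
Normalized log2 intensity of the 12 genes with the largest called rise (left) and the 12 with the largest called fall (right) among genes detected in both groups whose arrays did not overlap, with 1 point per array, filled red for 6 weeks and open blue for 1 week of TAA. That the filled and open points of each gene do not overlap was a condition of the choice. Scara3 has the largest change of the 24, at 3.90 log2 units.

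The 12 largest called falls, ranked in the same way, were of enzymes and transporters. Upp2, a liver uridine phosphorylase, read 5.69, 6.27 and 6.87 at 6 weeks, against 9.61, 9.05 and 9.06 at 1 week. The groups lay more than 2 log2 units apart, with a change of -2.97 ± 0.44 (adjusted p = 0.00262), and 3 further Upp2 probes changed by -2.71, -2.63 and -2.22. Etnppl, which breaks down phosphoethanolamine, read 8.42, 8.33 and 8.47 at 6 weeks, against 10.54, 10.23 and 11.05 at 1 week (-2.20 ± 0.21, adjusted p = 0.000142). Nnmt, which methylates nicotinamide, read 10.36, 11.02 and 11.81 at 6 weeks, against 13.04, 12.99 and 13.20 at 1 week (-2.01 ± 0.31, adjusted p = 0.00273). Bright at both times, Nnmt varied among the 6-week arrays and hardly at all among the 1-week arrays. Hacl1, a peroxisomal enzyme of fatty acid alpha-oxidation, read 5.58, 5.84 and 4.63 at 6 weeks, against 8.09, 6.95 and 7.05 at 1 week (-2.01 ± 0.43, adjusted p = 0.012). The Hacl1 call was lost without 6-week array C (adjusted p = 0.0616) and without 1-week array A (0.0526). Cyp2b10, Cyp2b13, Cyp17a1, Slco1a4, Slc51b, Cth, Asl and Asns complete the 12 and are described with their pathways.

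Some called genes were detected at only 1 of the times. At 6 weeks 73 genes were called higher and detected on no 1-week array, 48 of them on every 6-week array, and 29 were called lower and detected on no 6-week array, 12 of them on every 1-week array. Genes that passed the filter on detection only through their brighter group had to differ, so these counts are a description. How many such genes they hold was not counted. For such genes the fold has a lower bound only, taken against the lowest detected signal of each dim array. Sema5a, a semaphorin, read 6.58, 6.40 and 7.13 at 6 weeks, against 4.72, 4.78 and 4.69 at 1 week, at least 2.48-fold higher (adjusted p = 0.00333). Serpina5, the protein C inhibitor, read 6.66, 6.68 and 6.69 at 6 weeks, against 5.09, 5.07 and 4.39 at 1 week, at least 2.43-fold higher (adjusted p = 0.00273). Its 6-week arrays were nearly identical. Sytl2, a partner of Rab27 in vesicle transport, was at least 2.45-fold higher (adjusted p = 0.00881). Spic, a transcription factor of iron-handling macrophages, read 4.28, 4.82 and 4.76 at 6 weeks, against 6.49, 5.73 and 6.53 at 1 week, at least 2.03-fold lower (adjusted p = 0.00253). Spic was detected on all 3 1-week arrays, 1 4-week array and 0 naive arrays, so that it passed the filter on detection only through the 1-week arrays, had to differ, and its p gives no support of its own. Slc22a26, of the organic anion transporter family, was at least 2.94-fold lower (adjusted p = 0.0159), Ppp4r4, a regulatory subunit of protein phosphatase 4, at least 2.17-fold (0.0103, with a further probe at -0.70), Pdxp, a pyridoxal phosphatase, at least 2.04-fold (0.00891) and Lrit1 at least 1.73-fold (0.0178). Without 6-week array C the calls of Slc22a26 (adjusted p = 0.0616), Ppp4r4 (0.0533) and Lrit1 were lost, and that of Lrit1 also without 6-week array B (0.0565) and 1-week array C.

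Matrix genes were higher at 6 weeks. Of 12 collagen chains tested, 5 were called higher and 0 lower, with a median change of 0.94, against 0.045 over all genes and a background of 5.28% called higher. Of 10 glycoproteins and proteoglycans, 4 were called higher and 1 lower (median 1.21), and of 15 crosslinking enzymes, proteases and their inhibitors 7 were called higher and 1 lower (median 1.02). Leaving out 1 array gave between 3 and 7 collagen chains and between 3 and 7 of the crosslinking group called higher, the fewest without 6-week array A or C, and also without 1-week array C for collagens. In the RNA of a whole organ, more or fewer cells of a type and more or less RNA per cell cannot be told apart.

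Col1a1, the main chain of fibrillar collagen I, read 6.54, 6.26 and 6.39 at 6 weeks, against 5.18, 4.59 and 4.26 at 1 week, where no array detected it. All 6-week arrays lay more than 1 log2 unit above the 1-week arrays, at least 2-fold higher (adjusted p = 0.00516). Col4a1, of the basement membrane, read 10.37, 9.50 and 10.60 at 6 weeks, against 8.49, 8.65 and 8.73 at 1 week (1.53 ± 0.29, adjusted p = 0.0068), and its partner Col4a2 changed by 1.58 ± 0.29 (adjusted p = 0.00623). Col3a1 read 7.82, 7.25 and 7.34 at 6 weeks, against 6.76, 6.28 and 6.19 at 1 week, and its change of 1.06 ± 0.36 did not pass the test (adjusted p = 0.075). The call of Col6a1 (1.19 ± 0.30, adjusted p = 0.0244) was lost without 6-week array C (0.0894), 6-week array A and 1-week array C.

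Elastic fibre genes were among those called. Eln, elastin, read 7.22, 6.78 and 7.76 at 6 weeks, against 5.04, 4.94 and 4.35 at 1 week, at least 3.63-fold higher (adjusted p = 0.00659). Mfap2, a microfibril protein, read 6.66, 6.75 and 7.08 at 6 weeks, against 4.53, 4.98 and 4.40 at 1 week, at least 2.71-fold higher (adjusted p = 0.0044), while a further Mfap2 probe changed by 0.57. Lox, the lysyl oxidase that crosslinks both collagen and elastin, read 6.35, 6.14 and 6.68 at 6 weeks, against 4.82, 4.51 and 4.44 at 1 week, at least 2-fold higher (adjusted p = 0.00253). No 1-week array detected Eln, Mfap2 or Lox, and every 6-week array did. Bgn, the proteoglycan biglycan, was bright throughout, at 12.22, 12.41 and 12.97 at 6 weeks, against 11.20, 11.28 and 10.87 at 1 week (1.42 ± 0.27, adjusted p = 0.00704). Mmp2, gelatinase A, read 9.43, 9.34 and 10.03 at 6 weeks, against 7.61, 7.38 and 6.17 at 1 week (2.55 ± 0.53, adjusted p = 0.0102). Loxl1, another lysyl oxidase, changed by 1.98 ± 0.49 (adjusted p = 0.0245), a call lost without 6-week array C (0.0864), 6-week array A or 1-week array C. Sparc, a matricellular protein, overlapped between the groups (1.29 ± 0.38, adjusted p = 0.0479, with a further probe at 0.41) and lost its call without 6-week array B or C or 1-week array B or C, with adjusted p up to 0.161. The protease inhibitor Timp1 had 6.87, 7.12 and 6.28 at 6 weeks, against 5.95, 6.05 and 6.09 at 1 week, and did not pass (0.73 ± 0.31, adjusted p = 0.147). Mmp12, the macrophage metalloelastase that degrades elastin, was the protease called lower: it read 6.47, 7.06 and 5.44 at 6 weeks, against 8.29, 8.37 and 7.45 at 1 week (-1.71 ± 0.34, adjusted p = 0.00872).

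Of 12 stellate cell and myofibroblast genes, 4 were called higher and 0 lower (median 0.64), against a background of 5.28% called higher. The count was 2 without 6-week array C or without 1-week array A, and 9 changes were positive and 3 negative. Acta2, the smooth muscle actin of myofibroblasts, read 8.11, 9.48 and 9.80 at 6 weeks, against 7.36, 6.21 and 6.06 at 1 week, a change of 2.59 ± 0.51 (adjusted p = 0.00825). The lowest 6-week array and the highest 1-week array were less than 1 log2 unit apart. Its 3 further probes changed by 0.66, 1.49 and -0.00, so the size differed with the probe. Gas6, the ligand of TAM receptor kinases, read 10.35, 10.12 and 10.73 at 6 weeks, against 9.35, 8.91 and 8.85 at 1 week (1.37 ± 0.24, adjusted p = 0.00516). Pdgfra, a receptor for platelet-derived growth factor, changed by 1.22 ± 0.28 (adjusted p = 0.017, but 0.0824 without 6-week array C and 0.0524 without 1-week array A). Ngfr, the nerve growth factor receptor found on stellate cells, changed by 0.69 ± 0.20 (adjusted p = 0.046) and lost its call without 6-week array A or C or 1-week array A or C (up to 0.167). Des, desmin, had 5.70, 6.08 and 6.67 at 6 weeks, against 6.02, 5.41 and 6.28 at 1 week, with overlapping groups (0.24 ± 0.32, adjusted p = 0.661), and Lrat was detected at neither time. Reln, a bright stellate cell marker, had 10.73, 10.59 and 10.81 at 6 weeks, against 11.50, 11.13 and 10.56 at 1 week (-0.35 ± 0.20, adjusted p = 0.286). Rgs5 and Thy1 had differences of -0.26 and -0.11. The summed linear intensity of the 12 genes ran from 4320 to 6060 at 6 weeks, against 2750 to 4680 at 1 week, and its part in the matrix results was not tested.

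The promoter of Acta2 is shown because this gene had the largest called change of the myofibroblast list. RefSeq gives it at chr19:34255324-34255623 on the minus strand of GRCm38.p6, from 250 bases before to 50 bases after the start. Capitals mark the single match on either strand to CATTCC, the core motif of TEAD factors, 146 bases before the start.
Acta2: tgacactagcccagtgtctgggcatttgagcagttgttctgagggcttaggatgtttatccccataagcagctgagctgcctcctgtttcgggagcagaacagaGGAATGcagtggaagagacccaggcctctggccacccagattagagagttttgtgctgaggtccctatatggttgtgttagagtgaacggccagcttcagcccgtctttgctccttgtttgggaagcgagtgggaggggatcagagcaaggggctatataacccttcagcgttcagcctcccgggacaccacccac
This motif occurs in 14.7% of 32851 promoters of the same length, so its presence here is a description only.

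**Figure D3:**
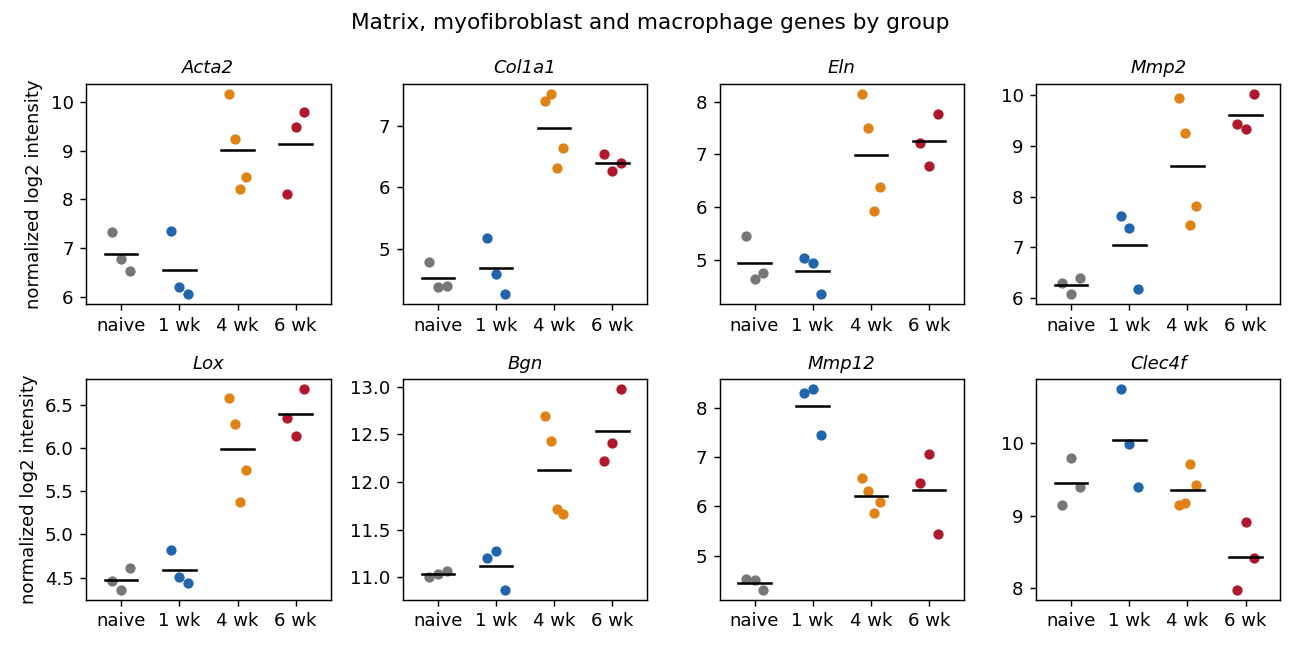
Normalized log2 intensity of 6 matrix and myofibroblast genes (Acta2, Col1a1, Eln, Mmp2, Lox, Bgn) and 2 macrophage genes (Mmp12, Clec4f) in naive liver and after 1, 4 and 6 weeks of TAA, with 1 point per array and a line at the group mean. The 6-week points lie above all 1-week points in the first 6 panels and below them in the Mmp12 and Clec4f panels.

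Duct and progenitor genes were higher at 6 weeks. Of 14 tested, 8 were called higher and 0 lower, all 14 changes were positive, and the median was 0.98, or 0.57 with genes undetected at 1 week at their bound. Cftr and St14, among the 8, and Krt19 and Anxa13 were detected on no 1-week or naive array. They passed the filter on detection only with the help of 6-week arrays, so their rises give no support of their own. The count rested on single arrays, at 2 without 6-week array C, 3 without 1-week array A and 11 without 1-week array B. Besides Ly6d, Cldn4, a tight junction claudin, read 8.71, 8.32 and 8.39 at 6 weeks, against 6.34, 7.56 and 5.95 at 1 week (1.86 ± 0.49, adjusted p = 0.0316). Tnfrsf12a, the receptor for TWEAK, a cytokine that drives progenitor growth, read 10.84, 10.67 and 10.15 at 6 weeks, against 8.97, 8.83 and 9.73 at 1 week (1.38 ± 0.33, adjusted p = 0.019). Sox9, a transcription factor of duct cells, read 6.51, 5.99 and 6.64 at 6 weeks, against 4.78, 5.77 and 4.49 at 1 week (1.36 ± 0.34, adjusted p = 0.0248, or 0.77 with undetected arrays at their lowest detected signal). The groups did not overlap in any of the 3, but their calls were lost when single arrays were left out: Cldn4 without any except 1-week array B (up to 0.0987), Tnfrsf12a without 6-week array A (0.0735) or 1-week array A (0.0641) and Sox9 without 6-week array A or C or 1-week array A or C (up to 0.0957). Krt19, a duct keratin, had 4.68, 5.10 and 6.51 at 6 weeks, against 4.60, 4.34 and 4.35 at 1 week, was detected on 6-week array C only and did not pass (1.00 ± 0.39, adjusted p = 0.112). The summed linear intensity of the list ran from 13700 to 14700 at 6 weeks, against 6720 to 11300 at 1 week. Most of this sum was the bright keratins Krt8 and Krt18. Both overlapped between the groups and were not called (0.55 ± 0.23 and 0.46 ± 0.27, adjusted p = 0.135 and 0.304). The sum therefore says little about the dimmer duct genes. Among 6 oncofetal genes Gpc3, a glypican of fetal liver, was called higher (1.20 ± 0.28, adjusted p = 0.0163, but 0.0803 without 6-week array C), with a further probe at 1.22. Afp, alpha-fetoprotein, had 5.93, 6.99 and 6.68 at 6 weeks, against 7.06, 7.32 and 5.42 at 1 week (adjusted p = 0.942).

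Resident macrophage genes were lower at 6 weeks. Of 10 tested, 5 were called lower and 0 higher, against a background of 3.90% called lower, with a median change of -0.85. The count was 1 without 6-week array A or C and 2 without 1-week array A. Clec4f, a lectin receptor of Kupffer cells, read 7.98, 8.91 and 8.41 at 6 weeks, against 10.74, 9.99 and 9.39 at 1 week. Its change of -1.61 ± 0.31 (adjusted p = 0.00825) stayed called with each array left out, and a further probe changed by -1.23. Timd4, a receptor for dying cells, read 5.21, 5.71 and 5.12 at 6 weeks, against 6.51, 6.03 and 6.70 at 1 week (-1.06 ± 0.24, adjusted p = 0.015). Adgre1, an adhesion receptor used as a macrophage marker, read 7.08, 8.48 and 7.48 at 6 weeks, against 9.73, 8.70 and 8.49 at 1 week (-1.29 ± 0.36, adjusted p = 0.0373). The Timd4 call was lost without 6-week array A or C (up to 0.0694), and the calls of Adgre1 and of the C-type lectin Clec1b (-0.94 ± 0.25, adjusted p = 0.0321) without 6-week array A (0.15 and 0.11), 6-week array C or 1-week array A. Cd163, the haemoglobin scavenger receptor, had 5.30, 5.99 and 6.18 at 6 weeks, against 6.37, 6.31 and 6.68 at 1 week, and did not pass (adjusted p = 0.0784). The list summed to between 6130 and 8090 at 6 weeks, against 8840 to 14500 at 1 week, in linear intensity. Most of this sum was 1 bright member, Slc40a1, which overlapped between the groups and was not called (-0.43 ± 0.22, adjusted p = 0.229). The sum therefore says little about the other members.

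Macrophage genes known from scars and inflammation were divided. Of 16 tested, 4 were called lower and 1 higher (median -0.57), beside 3.90% and 5.28% of all genes. The count of lower genes was 1 without 6-week array C and 7 without 1-week array B. Clec7a, the beta-glucan receptor dectin-1, read 6.80, 7.64 and 6.33 at 6 weeks, against 9.54, 8.66 and 7.96 at 1 week (-1.80 ± 0.38, adjusted p = 0.011). Lgals3, galectin-3, read 9.71, 10.22 and 9.35 at 6 weeks, against 11.21, 11.18 and 10.46 at 1 week (-1.19 ± 0.30, adjusted p = 0.0244). Clec7a lost its call without 6-week array C (0.0574), and Lgals3 without 6-week array A or C (up to 0.104) or 1-week array A (0.0793). Cx3cr1, the fractalkine receptor of monocytes and their offspring, went the other way, at 6.43, 6.64 and 7.53 at 6 weeks, against 5.31, 4.61 and 4.61 at 1 week (2.02 ± 0.37, adjusted p = 0.00627, or 1.43 with undetected arrays at their lowest detected signal). The scar-macrophage markers Gpnmb (0.03 ± 0.51, adjusted p = 0.974) and Trem2 (0.15 ± 0.43, adjusted p = 0.861) overlapped between the groups.

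The calls among chemokine and interferon genes were all lower, beside 3.90% of all genes called lower. Of 19 chemokine and cytokine genes, 4 were called lower (median -0.35), and 1 without 6-week array C, while 2 were called higher without 1-week array C. Ccl21a, which guides lymphocytes and dendritic cells, read 4.73, 4.45 and 4.58 at 6 weeks, where no array detected it, against 7.71, 5.40 and 6.16 at 1 week, at least 2.29-fold lower (adjusted p = 0.0185, but 0.0616 without 6-week array C). Like Spic, it passed the filter only through the 1-week arrays (it was detected on 0 4-week arrays and 1 naive array), so its p gives no support of its own. Ccl9, a chemokine for myeloid cells, read 9.96, 10.59 and 9.65 at 6 weeks, against 11.47, 11.51 and 10.84 at 1 week (-1.21 ± 0.25, adjusted p = 0.0102, but 0.0533 without 6-week array C). Cxcl9, an interferon-gamma target, changed by -1.78 ± 0.48 (adjusted p = 0.0329) and was still called only when 1-week array B was left out, with adjusted p up to 0.114. Ccl6 was at least 1.62-fold lower (adjusted p = 0.013, but 0.0567 without 6-week array A and 0.0528 without 1-week array A). Of 17 interferon-response genes, 2 were called lower, the GTPase Gbp2 (-1.36 ± 0.34, adjusted p = 0.0257) and the transcription factor Irf7 (-1.06 ± 0.29, adjusted p = 0.0369). The count was 0 without 6-week array B, 6-week array C or 1-week array A, and 6 without 1-week array C. Without 1-week array A, the median of the chemokine list was 0.02 in place of -0.35, and that of the interferon list -0.24 in place of -0.58.

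Limma called 0 members in the lists of MHC class II (6 tested, median -0.30), T, NK and B lymphocytes (5 tested, median -0.20), neutrophils (5 tested, median 0.58) and endothelial cells (15 tested, median -0.33). At an unadjusted p under 0.05 the counts were 0, 1, 1 and 5, where 26.4% of all genes passed. Without 1-week array B, 4 of the endothelial genes and 1 of the neutrophil genes were called lower. Without 1-week array A the median of the MHC class II list was 0.01. S100a8, a calcium-binding protein of neutrophils, had 8.45, 9.36 and 8.80 at 6 weeks, against 8.49, 7.74 and 8.58 at 1 week. Pecam1 and Stab2, of endothelial cells, had differences of -0.42 ± 0.28 and -0.53 ± 0.18 (adjusted p = 0.359 and 0.0829). Cd3e, Cd79a and Ms4a1, which define T and B cells, were detected on no array of either group, while Cd3d of T cells was detected on 3 6-week and 2 1-week arrays and Cd79b of B cells on 2 and 2. Red-cell RNA was not even: Hba-a1, alpha-globin, had 12.64, 13.28 and 13.26 at 6 weeks, against 11.98, 12.55 and 9.60 at 1 week (1.68 ± 0.60, adjusted p = 0.0882), with the dim 1-week array C lowest.

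Genes of DNA replication were lower on balance, and p53 targets higher. Of 16 replication genes, 15 changes were negative, and 3 were called lower and 0 higher (median -0.71), against a background of 3.90% called lower. The count was 1 without 6-week array A or C and 5 without 6-week array B. Tk1, the thymidine kinase of S phase, read 6.73, 7.16 and 6.70 at 6 weeks, against 8.50, 8.77 and 8.24 at 1 week (-1.64 ± 0.23, adjusted p = 0.00206). Its groups were more than 1 log2 unit apart and its call held with each array left out, while a further probe had a difference of -0.72. The calls of Ccne1, cyclin E1 (-1.10 ± 0.28, adjusted p = 0.0283, or -0.47 with undetected arrays at their lowest detected signal), and Rfc4, a clamp loader subunit (-0.87 ± 0.24, adjusted p = 0.04), were lost without 6-week array C (0.109 and 0.141), 6-week array A or 1-week array C, and that of Rfc4 also without 1-week array A. Mcm6, of the replicative helicase, read 7.45, 7.58 and 6.71 at 6 weeks, against 7.86, 9.06 and 8.40 at 1 week, just outside the threshold (-1.19 ± 0.36, adjusted p = 0.054). Of 14 mitosis genes limma called 0 (median 0.27), with 0 at an unadjusted p under 0.05, but without 1-week array B 9 of the 14 were called higher. That array was the highest of all 6 for both Cdk1 and Cdc20, at 8.55 and 10.19.

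Of 14 p53 targets, 7 were called higher and 0 lower (median 0.96), against a background of 5.28% called higher. With single arrays left out, 4 to 6 were called, the fewest without 6-week array A. Mdm2, the ubiquitin ligase that restrains p53, read 11.53, 11.07 and 11.19 at 6 weeks, against 9.78, 10.57 and 9.95 at 1 week (1.16 ± 0.22, adjusted p = 0.00682), and a further probe changed by 1.28. Bbc3, the cell death protein PUMA, read 9.18, 8.75 and 9.25 at 6 weeks, against 7.68, 8.28 and 7.66 at 1 week (1.18 ± 0.21, adjusted p = 0.00555), and a further probe had a difference of 0.50. Ddit4l, an inhibitor of mTOR signalling, read 9.15, 8.51 and 9.05 at 6 weeks, against 7.60, 7.52 and 7.64 at 1 week (1.32 ± 0.23, adjusted p = 0.00516). These 3 genes did not overlap between the groups and stayed called with each array left out. Zmat3, an RNA-binding p53 target, changed by 1.39 ± 0.31 (adjusted p = 0.013, but 0.0576 without 6-week array A and 0.0551 without 1-week array A). Cdkn1a, the cell cycle inhibitor p21, had 10.50, 10.46 and 9.87 at 6 weeks, against 9.32, 9.63 and 9.0 at 1 week, and although the groups did not overlap, its change of 0.97 ± 0.63 did not pass (adjusted p = 0.352). The SE pools the spread of all groups of the series. The SD of Cdkn1a was 1.96 in naive liver, against 0.35 at 6 weeks and 0.31 at 1 week. Its further probes had differences of 0.69 and 1.15.

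Among 14 immediate early and heat shock genes, 3 were called higher (median 0.25), against a background of 5.28%. The count was 1 without 6-week array A or C or 1-week array C. Klf6, a zinc finger factor of the injury response, read 9.97, 9.67 and 9.62 at 6 weeks, against 8.65, 9.03 and 8.09 at 1 week (1.16 ± 0.22, adjusted p = 0.0068). Egr1 (1.87 ± 0.47, adjusted p = 0.0257) and Jun (0.93 ± 0.26, adjusted p = 0.0369), both early-response transcription factors, lost their calls without 6-week array A (0.103 and 0.12), 6-week array C or 1-week array C, Egr1 also without 1-week array A, and Jun also without 6-week array B or 1-week array B. Of 27 glutathione and NRF2 target genes 1 was called in each direction, a share close to the background. Gsta1, a glutathione transferase, had 13.28, 13.42 and 13.09 at 6 weeks, against 13.01, 13.65 and 13.02 at 1 week.

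Urea cycle and amino acid genes fell. Of 21 tested, 13 were called lower and 0 higher, all 21 changes were negative, and the median was -0.87, against a background of 3.90% called lower. Between 7 and 12 were called when single arrays were left out, the fewest without 6-week array A. Cth, the cystathionine lyase that makes cysteine, read 6.87, 7.36 and 7.24 at 6 weeks, against 9.91, 8.90 and 9.67 at 1 week. The groups lay more than 1.5 log2 units apart (-2.33 ± 0.28, adjusted p = 0.00126), and Cth was among the 5 genes still called under median scaling, at -2.45. Asl, the argininosuccinate lyase of the urea cycle, read 5.92, 6.89 and 7.38 at 6 weeks, against 9.90, 8.36 and 8.89 at 1 week (-2.32 ± 0.39, adjusted p = 0.0044), with a further probe at -2.11. Otc, the ornithine carbamoyltransferase of the same cycle, read 5.97, 6.29 and 5.46 at 6 weeks, against 8.01, 6.63 and 7.45 at 1 week (-1.46 ± 0.32, adjusted p = 0.0137, but 0.0694 without 6-week array C and 0.0563 without 1-week array A). Got1, an aspartate aminotransferase, changed by -1.36 ± 0.32 (adjusted p = 0.017), and Prodh, the first enzyme of proline breakdown, by -1.10 ± 0.26 (adjusted p = 0.0194). Both lost their calls without 6-week array A or C, with adjusted p up to 0.0616 and 0.0781, and Prodh also without 1-week array C. Cps1, which starts the urea cycle, had 12.86, 12.48 and 12.83 at 6 weeks, against 13.21, 13.30 and 13.39 at 1 week, just outside the threshold (-0.57 ± 0.17, adjusted p = 0.0529). The list summed to between 69800 and 79200 at 6 weeks, against 105000 to 122000 at 1 week, in linear intensity.

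Asns, which makes asparagine and is a target of the amino acid response, fell too. It read 5.21, 5.45 and 5.49 at 6 weeks, against 7.44, 7.92 and 7.65 at 1 week (-2.28 ± 0.31, adjusted p = 0.00196). The groups were nearly 2 log2 units apart. Of 17 genes of the endoplasmic reticulum and integrated stress responses, Asns was the 1 called (list median -0.22), beside 9.18% of all genes called in either direction. Ddit3, the transcription factor CHOP of the same response, had 7.83, 7.56 and 8.07 at 6 weeks, against 7.21, 7.74 and 7.82 at 1 week (adjusted p = 0.574). The Asns promoter is shown because its response element is the best known of that pathway. RefSeq gives it at chr6:7693160-7693459 on the minus strand of GRCm38.p6, and capitals mark the single match on either strand to TGATGNAAN, the C/EBP-ATF response element, 23 bases before the start.
Asns: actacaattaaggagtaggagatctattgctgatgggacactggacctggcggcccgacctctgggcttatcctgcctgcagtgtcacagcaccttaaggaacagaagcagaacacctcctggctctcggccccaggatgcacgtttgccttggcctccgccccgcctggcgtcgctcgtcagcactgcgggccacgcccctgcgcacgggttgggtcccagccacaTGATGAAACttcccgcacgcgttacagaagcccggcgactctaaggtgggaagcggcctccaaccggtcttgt
This motif occurs in 3.95% of the 32851 promoters.

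Of 15 periportal genes, 6 were called lower and 0 higher (median -0.65), against a background of 3.90% called lower. Without 6-week array C, 3 were called lower. Asl and Otc belong to this list too. Pigr, the receptor that carries IgA into bile, read 8.25, 8.20 and 7.74 at 6 weeks, against 9.08, 9.90 and 9.61 at 1 week (-1.47 ± 0.26, adjusted p = 0.00578). Hsd17b6, a steroid dehydrogenase, read 7.22, 7.19 and 6.93 at 6 weeks, against 8.27, 8.92 and 8.47 at 1 week (-1.44 ± 0.22, adjusted p = 0.00265). Hal, the histidine lyase, changed by -1.07 ± 0.23 (adjusted p = 0.012, but 0.0518 without 6-week array C). Cyp2f2, another periportal gene, had 13.24, 12.69 and 13.01 at 6 weeks, against 12.90, 13.41 and 12.29 at 1 week, with overlapping groups. Of 19 pericentral genes, 1 was called higher and 2 lower (median -0.19), beside 5.28% and 3.90% of all genes. The count of lower genes was 0 without 6-week array A or C. Axin2, a Wnt target and feedback inhibitor, was the higher one, at 8.54, 7.36 and 7.52 at 6 weeks, against 6.07, 6.61 and 6.41 at 1 week (1.44 ± 0.27, adjusted p = 0.0068). The glutamate transporter Slc1a2 (at least 1.54-fold lower, adjusted p = 0.0149) lost its call without 6-week array A or C (up to 0.0538), and the anion transporter Slco1b2 (-1.33 ± 0.39, adjusted p = 0.0468) without any array except 1-week array B (up to 0.164). Glul, glutamine synthetase, was detected at neither time.

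Cytochrome P450 genes were lower on balance. Of 21 tested, 5 were called lower and 1 higher, beside 3.90% and 5.28% of all genes, and the median was -0.55. Leaving out 1 array gave between 4 and 7 called lower. Cyp2b10, a target of the drug-sensing receptor CAR, read 5.94, 5.67 and 6.41 at 6 weeks, against 8.66, 8.85 and 8.93 at 1 week (-2.81 ± 0.42, adjusted p = 0.00265). Its arrays were close together within each group. Cyp17a1, a steroid hydroxylase, read 8.56, 8.98 and 9.03 at 6 weeks, against 10.95, 11.39 and 9.97 at 1 week (-1.91 ± 0.40, adjusted p = 0.0107). Cyp2b13 read 6.23, 7.25 and 5.83 at 6 weeks, against 8.58, 8.36 and 10.32 at 1 week (-2.65 ± 0.64, adjusted p = 0.0215), and lost its call without 6-week array C (0.0888), 6-week array A or 1-week array C. Cyp2b13 and Cyp2b10 are close relatives, and which probe reads which transcript was not checked. Cyp2e1, of the pericentral list, and Cyp3a11, both drug-metabolising P450s, had changes of 0.02 ± 0.20 and -0.55 ± 0.30 (adjusted p = 0.969 and 0.271).

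The higher P450 was Cyp4a12a, which in mice is expressed mainly in male liver. It read 7.96, 6.16 and 6.65 at 6 weeks, against 4.55, 4.64 and 5.51 at 1 week, at least 2.89-fold higher (adjusted p = 0.00629). Of 7 genes that are higher in female liver, all changes were negative and 3 were called lower (median -0.86): Cyp2b13, Cyp17a1 and Hao2, a peroxisomal hydroxyacid oxidase (-1.76 ± 0.37, adjusted p = 0.011, or -1.40 with undetected arrays at their lowest detected signal). Without 6-week array A only 1 of the 3 was called, and the adjusted p of Hao2 was 0.051. Of 10 genes higher in male liver, Cyp4a12a was the only one called (median 0.35). Over all genes, 5.28% were called higher and 3.90% lower. Hsd3b5, a male liver steroid dehydrogenase, was detected at neither time.

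Of 16 genes of bile acid synthesis and transport, 4 were called lower (median -0.12), against a background of 3.90%. Slc51b, a subunit of the exporter that returns bile acids to blood, read 5.08, 6.01 and 5.32 at 6 weeks, against 8.18, 6.78 and 8.39 at 1 week (-2.31 ± 0.42, adjusted p = 0.00619). Slco1a4, an uptake carrier for organic anions, read 5.52, 5.18 and 5.19 at 6 weeks, against 7.86, 6.49 and 7.69 at 1 week (-2.05 ± 0.30, adjusted p = 0.00253). In both, 1-week array B was the lowest of its group and still above all 6-week arrays. Abcb11, the bile salt export pump, read 8.42, 8.28 and 8.34 at 6 weeks, against 9.50, 9.97 and 8.95 at 1 week (-1.13 ± 0.24, adjusted p = 0.012). Baat, which joins bile acids to glycine and taurine, changed by -1.17 ± 0.27 (adjusted p = 0.0155, but 0.0746 without 6-week array C). Cyp7a1, the rate-limiting enzyme of bile acid synthesis, had 11.19, 10.36 and 11.14 at 6 weeks, against 12.03, 10.84 and 12.10 at 1 week, with overlapping groups (-0.76 ± 0.33, adjusted p = 0.159).

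Sterol synthesis genes rose. Of 17 tested, 9 were called higher and 0 lower (median 0.86), against a background of 5.28% called higher. The count was 6 without 6-week array A or C and 11 without 1-week array B. Hmgcs1, the synthase that feeds the mevalonate pathway, read 14.68, 14.65 and 14.65 at 6 weeks, against 13.16, 13.57 and 13.36 at 1 week. Its 6-week arrays were almost identical, and more than 1 log2 unit above all 1-week arrays (1.30 ± 0.16, adjusted p = 0.00126). Fdps, farnesyl diphosphate synthase, read 13.49, 13.13 and 13.39 at 6 weeks, against 11.85, 12.39 and 11.86 at 1 week (1.30 ± 0.19, adjusted p = 0.00253). Lss, lanosterol synthase, read 9.51, 9.30 and 9.69 at 6 weeks, against 8.24, 8.74 and 8.01 at 1 week (1.17 ± 0.22, adjusted p = 0.00755). Sqle, squalene epoxidase, read 11.57, 10.85 and 11.25 at 6 weeks, against 10.16, 10.03 and 10.03 at 1 week (1.16 ± 0.22, adjusted p = 0.00682). These 4 enzymes act at different steps from acetyl-CoA to sterols, none overlapped between the groups, and all stayed called with each array left out. Probes of the same gene differed in 2 cases: a further Sqle probe changed by -0.24, and Nsdhl, a sterol dehydrogenase, changed by 1.26 ± 0.27 (adjusted p = 0.0124, or 1.01 with undetected arrays at their lowest detected signal) with further probes at 0.11, 0.18 and -0.38. The list summed to between 45400 and 52900 at 6 weeks, against 20200 to 25200 at 1 week, in linear intensity.

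The promoter of Hmgcs1 is shown because this gene had the largest called rise of the sterol list together with Fdps and is a known target of SREBP-2, the transcription factor of sterol synthesis. RefSeq gives it at chr13:119690101-119690400 on the plus strand of GRCm38.p6, and capitals mark the single match on either strand to TCACNCCAC, a form of the sterol response element, 137 bases before the start.
Hmgcs1: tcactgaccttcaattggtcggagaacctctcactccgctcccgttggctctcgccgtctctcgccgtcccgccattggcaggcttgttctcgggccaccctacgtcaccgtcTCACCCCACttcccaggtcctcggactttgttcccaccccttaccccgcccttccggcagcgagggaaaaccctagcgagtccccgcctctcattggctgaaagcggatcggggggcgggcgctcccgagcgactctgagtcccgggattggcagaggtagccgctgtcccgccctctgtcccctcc
Of the 17 sterol genes 14 had a promoter in the table and 1, Hmgcs1, had this match, and it occurs in 1.24% of all 32851 promoters.

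**Figure D4:**
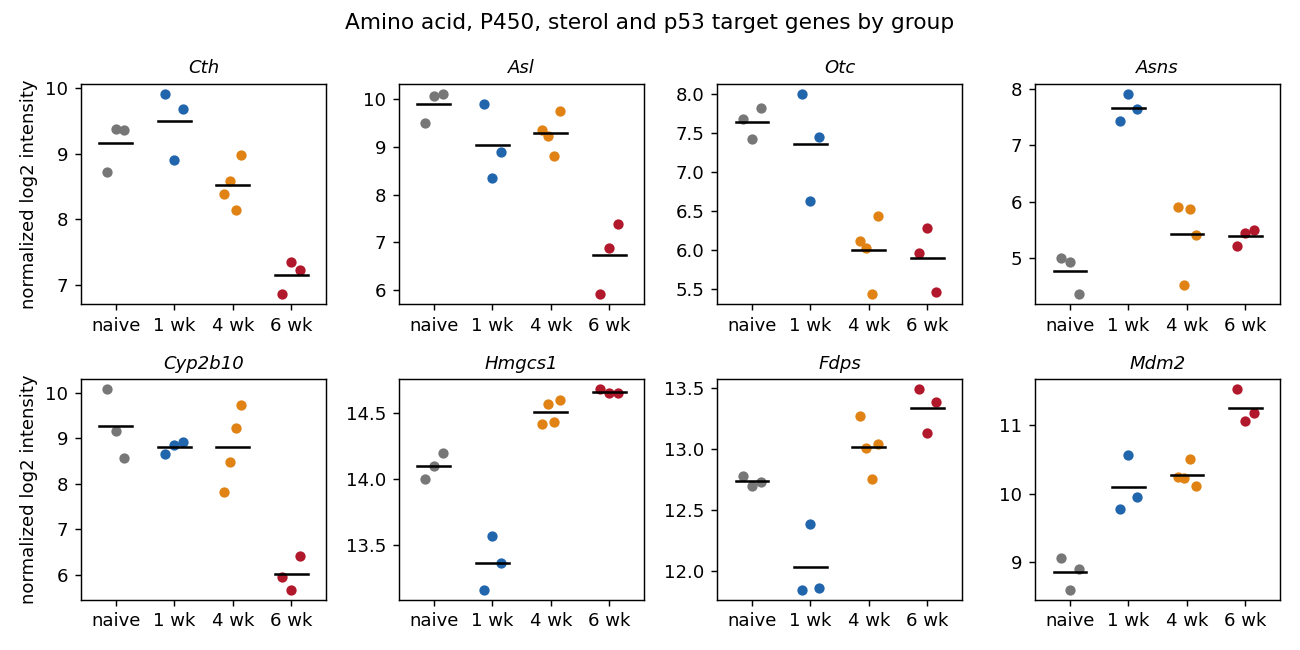
Normalized log2 intensity of 4 amino acid genes (Cth, Asl, Otc, Asns), Cyp2b10, 2 sterol synthesis genes (Hmgcs1, Fdps) and Mdm2 in naive liver and after 1, 4 and 6 weeks of TAA, with 1 point per array and a line at the group mean. Hmgcs1 and Fdps are lowest at 1 week and highest at 6 weeks, and Cth, Asl and Cyp2b10 are lowest at 6 weeks.

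The lists of this paragraph stand beside a background of 5.28% of all genes called higher and 3.90% lower. Of 15 fatty acid synthesis genes 0 were called higher (3 without 1-week array B) and 1 lower (median 0.25). That one was Srebf1, the transcription factor of lipid synthesis, at 7.37, 6.81 and 6.97 at 6 weeks, against 8.05, 8.03 and 8.49 at 1 week (-1.14 ± 0.21, adjusted p = 0.00666). Fasn and Scd1, which make and desaturate fatty acids, had differences of -0.09 ± 0.23 and 0.18 ± 0.20 (adjusted p = 0.85 and 0.599). Among 16 genes of fatty acid oxidation Pdk4 was the only one called (median 0.14). Of 23 genes of the respiratory chain and ATP synthase 1 was called, Atp5a1, an ATP synthase subunit, at 9.18, 9.49 and 9.08 at 6 weeks, against 10.38, 10.16 and 10.42 at 1 week (-1.07 ± 0.17, adjusted p = 0.00314), while Cox4i1 had a difference of -0.02 ± 0.18. Without 1-week array B, 4 of the 23 were called lower.

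General hepatocyte genes and the remaining lists stand beside a background of 9.18% of all genes called in either direction. Of 21 secreted proteins and identity factors 1 was called, the transcription factor Prox1 (0.84 ± 0.23, adjusted p = 0.0367, with a further probe at 0.01), which was still called only when 1-week array B was left out (up to 0.125), and the median was -0.05. Hnf4a, a master regulator of hepatocytes, had 11.80, 11.23 and 11.46 at 6 weeks, against 10.96, 11.86 and 11.72 at 1 week. Limma called 0 of 21 acute phase genes (median -0.30), of 12 circadian clock genes (median -0.05) and of 23 proteasome genes (median 0.06), where 6, 0 and 0 had an unadjusted p under 0.05. Of the acute phase genes 2 were called lower without 1-week array C and 1 higher without 1-week array B, and 1 proteasome gene was called lower without 1-week array B. Of 15 lysosome genes 2 were called lower (median -0.14) and of 16 cytoskeleton and annexin genes 2 were called higher (median 0.27). The background was 3.90% called lower and 5.28% called higher. The lysosome count was 0 with any array left out except 1-week array C. The cytoskeleton and annexin count was 0 without 6-week array B or C or 1-week array C, and 4 without 1-week array B.

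**Figure D5:**
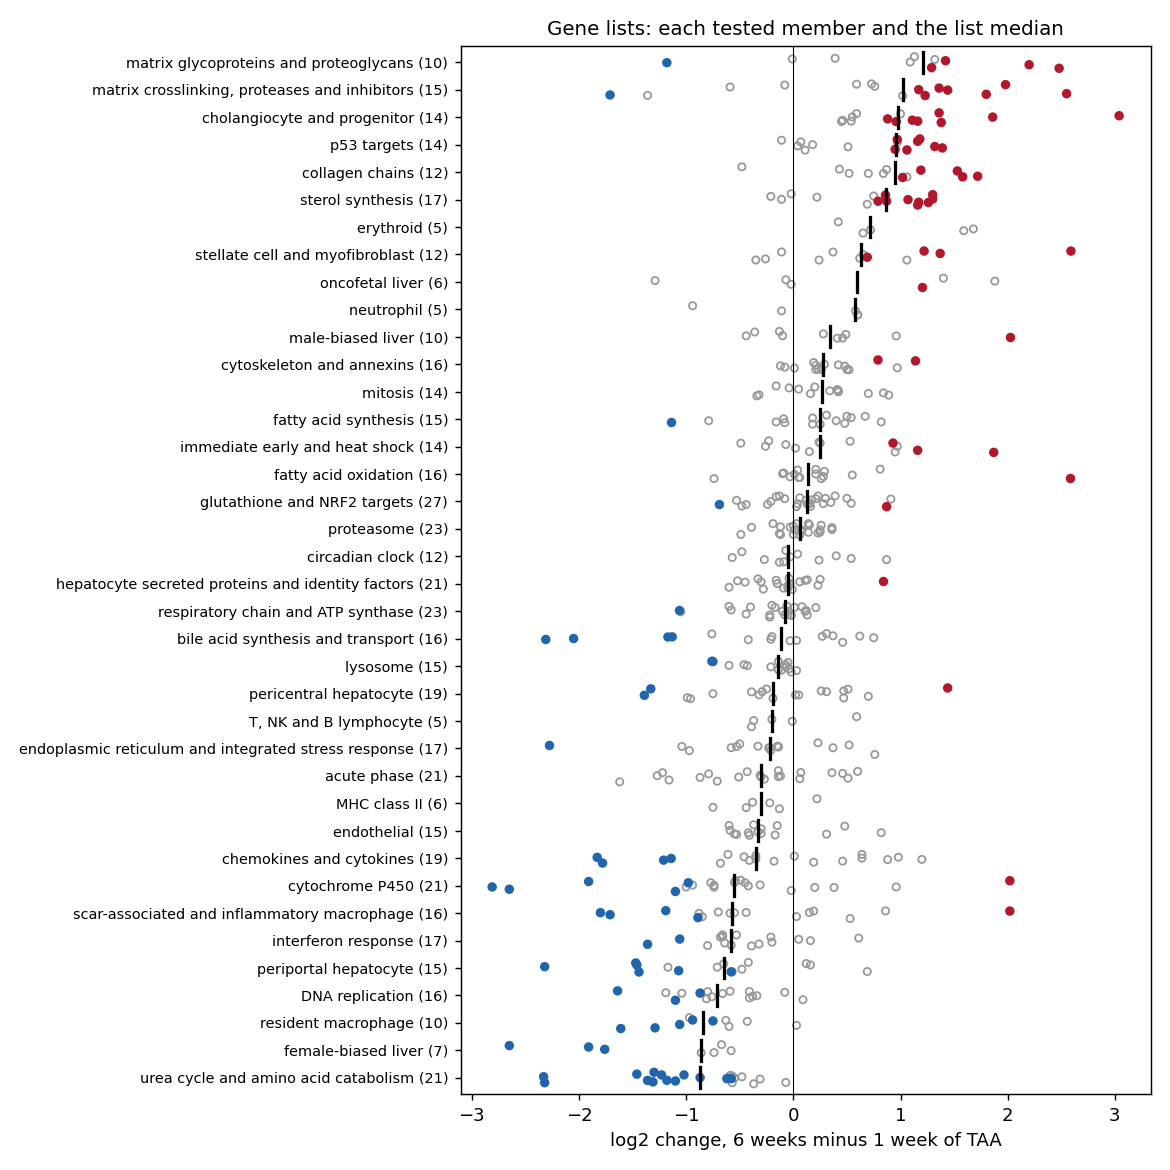
Log2 change at 6 weeks minus 1 week of TAA for each tested gene of the lists with at least 5 tested members, with lists ordered by their median (black bar), called genes filled red (higher) or blue (lower) and other genes open grey. Matrix, duct, p53 and sterol lists lie at the top with medians between 0.86 and 1.21, and the urea cycle and amino acid list at the bottom with -0.87.

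The levels at the other times of the series formed several orders, given as a description because the genes were picked on the 6-week against 1-week difference (mean ± SD, n = 3, 3, 4 and 3 for naive, 1, 4 and 6 weeks). In Eln and Acta2 the 4-week level was near that of 6 weeks and the 1-week level near naive. Eln averaged 4.94 ± 0.44 in naive liver, 4.78 ± 0.37 at 1 week, 6.99 ± 1.02 at 4 weeks and 7.25 ± 0.49 at 6 weeks. Acta2 averaged 6.88 ± 0.40, 6.54 ± 0.71, 9.02 ± 0.88 and 9.13 ± 0.89 in the same order. Scara3 and Hmgcs1 were lower at 1 week than in naive liver and above naive later: Scara3 averaged 7.23 ± 0.19, 5.92 ± 0.23, 9.49 ± 0.58 and 9.82 ± 0.73, and Hmgcs1 averaged 14.10 ± 0.10, 13.36 ± 0.20, 14.50 ± 0.10 and 14.66 ± 0.02, in the order naive, 1, 4 and 6 weeks. Asns and Mmp12 had their highest mean at 1 week. Asns averaged 4.77 ± 0.35 in naive liver, 7.67 ± 0.24 at 1 week, 5.42 ± 0.64 at 4 weeks and 5.38 ± 0.15 at 6 weeks. Mmp12 averaged 4.45 ± 0.13, 8.04 ± 0.51, 6.21 ± 0.30 and 6.32 ± 0.82 in the same order, and so remained above naive at 6 weeks. Lcn8, Cyp2b10 and Cth stood apart at 6 weeks from the earlier times. Lcn8 averaged 5.35 ± 0.38 in naive liver, 5.14 ± 0.02 at 1 week, 5.84 ± 0.72 at 4 weeks and 7.78 ± 0.67 at 6 weeks, while Cyp2b10 averaged 9.27 ± 0.77, 8.81 ± 0.14, 8.82 ± 0.83 and 6.01 ± 0.38. Cth averaged 9.15 ± 0.38, 9.49 ± 0.53, 8.52 ± 0.35 and 7.16 ± 0.26 in the same order. Tk1 was nearly level between naive liver (8.57 ± 0.19) and 1 week (8.50 ± 0.26) and lower at 4 weeks (7.51 ± 0.36) and 6 weeks (6.86 ± 0.26). Other replication genes had a different order, with the highest mean at 1 week. In the order naive, 1, 4 and 6 weeks, Mcm6 averaged 5.70, 8.44, 7.41 and 7.25, and Rfc4 5.42, 7.41, 6.51 and 6.54. Ccne1 averaged 4.63, 5.70, 5.06 and 4.60, so it was near naive at 6 weeks.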

How the data were processed

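RNA of total liver from 13 samples was measured on single-colour arrays. Per the file headers, the deposited raw table gives for every probe its average bead intensity, not normalized, and a detection p-value set against negative control beads. GenomeStudio is named, without version, in the submitters' processing notes. The authors' deposited value table was read as log2, higher for brighter. Its 6-week against 1-week differences followed those of log2 intensities quantile-normalized without background correction, with r = 0.998 and a slope of 0.898. The background-corrected values reported above were not part of that check. Its normalization is not stated and its centring is unknown (97.5% of probes had a median within 0.1 of 0). Its column medians were -0.000867, -0.000607 and -0.000975 for naive samples, -0.00176, -0.00116 and -0.000485 at 1 week, -0.0007, 0.000287, 0.000198 and -0.000198 at 4 weeks, and 0.00115, 0.00134 and 3.67e-05 at 6 weeks.

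Intensities were background-corrected and quantile-normalized with neqc (offset 16, negative controls inferred from the detection p-values) in limma 3.58.1 under R 4.3.3. Of 25697 probes, the annotation named a single gene for 23978, several for 0 and none for 1719. Identifiers matched 23962 to current symbols and accessions 9, and 7 kept the annotation's symbol. Probes detected (p under 0.01) on at least 3 of 13 arrays were kept (11212, of which 653 had no symbol), and the probe with the highest mean over all arrays stood for each of 8027 genes, 1935 of which had further probes. A model with a mean per group was fitted to all 13 arrays with lmFit and eBayes, and 6 weeks minus 1 week was tested two-sided, with p-values adjusted by Benjamini and Hochberg over 8027 genes and called under 0.05. For genes undetected on every array of the dimmer group, the bound of the fold sets the brighter mean against the mean of the dimmer arrays' lowest detected signals (or the probe's own signal where higher). The number of arrays limits the precision.

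The groups, and the genes in 40 lists written from general knowledge (771 symbols, 682 on the array, 541 tested), were chosen with earlier results of these data known. Genes were named by a rule: the 12 largest called rises and 12 largest falls whose arrays did not overlap and that were detected in both groups, the 6 largest bounds per direction, up to 4 called members and the first 2 members of each list, and the genes of the array sets. Alternatives changed the arrays fitted, normalization, filter, probes, weights, variance prior and table, and left out each array. The procedure was tested on simulated data, where 53 of 100 genes changed by 1 log2 unit and 97 of 100 changed by 2 were called among 8027, with 11 false calls. The simulated noise of a gene was normal, independent and of equal spread on all arrays, with no array set. These rates may therefore differ for the real arrays. Columns of the raw table carry letters that the labels do not match to replicate numbers. Probe positions in the genome were not used here, and promoter sequences are from RefSeq (GRCm38.p6).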

Additional observations from a re-analysis of the deposited data

How the results depend on the processing

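The 737 genes called (424 higher, 313 lower) stayed within 1.5-fold of these counts without background correction, with only genes detected on every array, with all named probes, with an intensity trend and from the authors' value table. Fitting only the 6 arrays gave 169 (111 and 58), array weights 209 (121 and 88), the array set as a term 425 (263 and 162), and median scaling in place of quantile normalization 5 (1 and 4). With no detection filter 533 genes were called, 208 of them lower, of 16590 tested. Leaving out single arrays gave from 274 to 1396 called, from 165 to 830 higher and from 109 to 566 lower, the fewest without 6-week array C and the most without 1-week array B. The causes of these differences were not tested.

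Of 100 called genes named by the rule, 55 stayed called with each of the 6 arrays left out. Cth, Etnppl, Nnmt and Scara3 stayed called in every alternative other than the fits of 6 samples, and 0 of the 100 changed sign in any alternative. Where single arrays were left out, genes whose groups did not overlap could not change sign, so that part is no check. Medians of the mitosis, glutathione, immediate early, fatty acid, proteasome and cytoskeleton lists, all within 0.3 of 0, turned negative with median scaling, where the median of all genes was -0.231.

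Replicate numbers in the labels were not shown to pair samples: deviations of same-numbered 6-week and 1-week samples correlated at -0.296, -0.27 and 0.0568. With the number as a replicate block in the authors' value table of 6 samples, 15 genes (8 higher, 7 lower) were called, against 181 (105 and 76) without the block, an alternative chosen after seeing the data. The dimmest array, 1-week array C, detected 8344 probes and its lowest detected signal was 5.85 on the log2 scale, which limits what can be read of dim genes at 1 week.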

Other observations

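Probes without a gene symbol also differed between the times: among the probes past the filter that carry no symbol, 56 were called at 6 weeks against 1 week, 21 of them higher, and these are not named here. Of the 737 called genes, 169 had further probes past the filter, and in 149 of them every further probe changed in the same direction.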
